A study of Mus musculus with 8 samples.

Results

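The nuclear factor I (NFI) genes Nfia, Nfib, Nfic and Nfix encode the 4 members of a family of DNA-binding proteins, and their transcripts are described here in rib chondrocytes of mouse embryos. The genes were taken by symbol. All 23 probe sets that the platform annotation maps to exactly 1 of these symbols were used, 6 for Nfia, 7 for Nfib, 5 for Nfic and 5 for Nfix, of 45101 probe sets on the array and 4 of 18193 genes named by a single symbol. The family was proposed with earlier results of these data known, among them the differences between litters, so its values by litter are given as a description.

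RNA came from embryos of the FVB strain taken at E18.5, shortly before birth. The transgenic group was labelled Hoxc8 transgenic and the control group wild type, and each of 4 litters gave 1 transgenic and 1 control array. The litters carry the labels Mouse_168, Mouse_170, Mouse_173 and Mouse_174 and are called litters 1, 2, 3 and 4 here, after the replicate numbers in the sample titles. Embryos of a litter were grouped by genotype, so that an array stands for such a group. The labels used here give neither the number of embryos behind an array nor the promoter that drives the transgene. Rib cages were digested with collagenase and trypsin and the cells were strained without sorting, so other cells of the rib cage can be present. All 14 cartilage markers checked were above the signal filter, with Cnmd, Col9a1 and Col2a1 the brightest. In such a mixture, fewer cells of a type and less RNA per cell cannot be told apart.

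NFI proteins bind DNA as dimers through a conserved N-terminal domain and can raise or lower transcription through a more variable C-terminal part. The full binding site is a palindrome, TTGGC and its reverse complement GCCAA with 5 bases between them, and a single half-site can also be bound. In mice, Nfia is known for the formation of glia, Nfib for maturation of the lung, Nfic for growth of the tooth root and Nfix for the change from embryonic to fetal muscle. Nfix has also been tied to the skeleton, since mice without it have defects of endochondral bone formation, the process in which cartilage is replaced by bone.

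Promoter windows are given as a description of the genes and were taken without regard to the litters. The RefSeq table of assembly GRCm38.p6 held 6 starts of 3 of the genes, 1 for Nfia, 1 for Nfic and 4 for Nfix. It held no start for Nfib, which is the only reason that no Nfib window is shown. For each the 250 bases before the start were searched on both strands for the NFI half-site TTGGC, the palindrome above and ACAAT, the core of sites for Sox factors, which direct chondrocyte fate. Printed from 5′ to 3′ on the strand of the gene, with half-sites and Sox cores in capitals, 4 of the 6 windows are shown: those of Nfia and Nfic and the 2 Nfix windows with a half-site. The other two Nfix windows, which hold neither motif, are left out. The Nfia window is chr4:97581693-97581942 on the plus strand, and the others lie on the minus strand, at chr10:81427174-81427423 for Nfic and at chr8:84775829-84776078 and chr8:84772876-84773125 for Nfix.
Nfia: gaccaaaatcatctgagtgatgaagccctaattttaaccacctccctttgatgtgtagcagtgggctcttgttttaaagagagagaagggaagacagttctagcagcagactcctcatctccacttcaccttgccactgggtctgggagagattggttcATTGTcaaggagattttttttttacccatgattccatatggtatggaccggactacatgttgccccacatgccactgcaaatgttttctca
Nfic: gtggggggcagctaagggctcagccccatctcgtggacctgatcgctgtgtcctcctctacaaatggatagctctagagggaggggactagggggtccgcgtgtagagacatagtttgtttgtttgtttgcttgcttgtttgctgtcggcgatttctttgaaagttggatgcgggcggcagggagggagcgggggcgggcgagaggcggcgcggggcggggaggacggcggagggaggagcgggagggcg
Nfix, first start shown: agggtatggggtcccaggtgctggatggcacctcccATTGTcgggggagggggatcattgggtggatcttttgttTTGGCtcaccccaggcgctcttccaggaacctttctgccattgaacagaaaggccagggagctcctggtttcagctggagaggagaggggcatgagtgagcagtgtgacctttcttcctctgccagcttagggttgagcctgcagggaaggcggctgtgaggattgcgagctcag
Nfix, second start shown: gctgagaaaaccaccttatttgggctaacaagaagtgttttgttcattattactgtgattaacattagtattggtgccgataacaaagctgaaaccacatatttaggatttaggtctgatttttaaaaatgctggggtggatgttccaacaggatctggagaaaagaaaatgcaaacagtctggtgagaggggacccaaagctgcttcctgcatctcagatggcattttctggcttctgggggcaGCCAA

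The half-site was found in 2 of the 4 Nfix windows, 175 and 5 bases before the start counted from its first base, and in neither the Nfia nor the Nfic window. The same 5 bases occur in 41.5% of all 32851 windows, so their presence in 2 of these 6 windows is no more than a description. The Sox core was found 91 bases before the Nfia start and 214 bases before 1 of the Nfix starts, against 27.7% of all windows. None of the 6 windows held the palindrome, which 0.0365% of all windows hold. The windows differ in base composition: the Nfic window is 63.2% G and C with 19 CpG pairs and the Nfia window 44.8% with 1 pair, against a median of 52.4% and 6 pairs over all windows.

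Signals are given as linear MAS5 intensities. They can be compared between arrays for the same probe set, but not between probe sets or genes. A probe set was tested when its mean over the 8 arrays reached 110, the median of all probe sets that are no Affymetrix controls. Of the 23 NFI probe sets 20 passed, and a gene's probe set with the highest mean signal is called its leading one. The 3 that did not pass were 1450661_x_at (mean 109) and 1427665_a_at (mean 83.7) of Nfic and 1451443_at (mean 13.4) of Nfix. The median signal per array was 107 to 121, any pair of arrays had a Spearman correlation of 0.924 to 0.943 across probe sets, and precision is limited by there being 4 arrays per genotype. Hoxc8 itself had a mean signal of 3885 ± 369 in transgenic and 3519 ± 501 in control arrays (SD, n = 4 each), with an exact two-sided permutation p of 0.229. No source used here says whether this probe set detects the transgene, so it does not check the labels.

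Nfix, which directs fetal muscle genes in mice, had the widest median gap between litters of the 4 genes. On its leading probe set 1436363_a_at, signals in litters 1, 2 and 3 were 12522, 11886 and 11356 in transgenic arrays and 12824, 13452 and 11800 in control arrays. In litter 4 they were 5522 in the transgenic and 5391 in the control array. Both arrays of litter 4 thus lay below every other array, with a gap between the highest and the lowest litter mean of 1.21 log2, or 2.32-fold, beside a spread within litters of 0.07 log2 (SD, 2 arrays per litter).

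Another pair of Nfix probe sets showed the same order of litters at the low end. For 1423493_a_at the signals were 5530, 5419, 5273 and 1912 in transgenic and 5497, 5155, 4768 and 1997 in control arrays of litters 1 to 4, a gap of 1.49 log2 or 2.80-fold. For 1436364_x_at they were 8248, 7991, 7259 and 3601 in transgenic and 8859, 8483, 7270 and 3402 in control arrays, a gap of 1.28 log2. Probe set 1436364_x_at was designed from the same sequence record as the leading one, and its name marks probes that can match other genes, so it is not an independent measurement. The fourth tested probe set, 1459909_at, did not show the pattern. It gave 263 in the transgenic and 118 in the control array of litter 4, against 193 to 244 in the other transgenic and 201 to 222 in the other control arrays, so that its transgenic array was the highest and its control array the lowest of all 8.

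Nfic, which acts in the growth of tooth roots, had the next widest spread. Its leading probe set 1435527_at gave 3381, 3537, 2568 and 1728 in transgenic and 3756, 4172, 2970 and 1835 in control arrays of litters 1 to 4. Litter 4 was again below all other arrays, and litter 3 stood between it and the other two. The gap between litter means was 1.10 log2 or 2.14-fold, beside 0.13 log2 within litters. For 1429148_at litter 4 was also lowest, with 202 in the transgenic and 233 in the control array, but here litter 3 was the highest, with 450 and 430. For 1422565_s_at the lowest array of all was the control of litter 2 at 80.3, and litter 4 stood at 90.2 in the transgenic and 99.9 in the control array. The 2 Nfic probe sets under the filter were lowest in litter 4 too, with 35.0 and 24.8 for 1450661_x_at and 37.4 and 39.8 for 1427665_a_at in the transgenic and the control array, at signals near the offset of 22.2 that was added before the logarithm. Probe sets 1450661_x_at and 1422565_s_at were designed from the same sequence record.

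Nfia, known for its part in glial development, showed the same low litter with smaller gaps on its brighter probe sets. The leading one, 1456087_at, gave 2838, 2733, 3098 and 2568 in transgenic and 3431, 3185, 3556 and 2403 in control arrays of litters 1 to 4. Both arrays of litter 4 lay below the other 6, and the gap between litter means was 0.41 log2 or 1.33-fold. For 1421163_a_at the values of litter 4 were 1628 in the transgenic and 1326 in the control array, against 1965 to 2160 in the other transgenic and 2278 to 2445 in the other control arrays. The widest gap of any NFI probe set, 1.50 log2, was that of 1421162_a_at, with 115 and 126 in the transgenic and control array of litter 4 against 238 to 313 in the other transgenic and 265 to 462 in the other control arrays. This probe set and 1421163_a_at were designed from the same sequence record. Litter 4 was also below all other arrays for 1427733_a_at, at 179 in the transgenic and 195 in the control array, and for 1438236_at, at 257 and 213. On 1446990_at litter 4 did not stand apart, with 867 in the transgenic and 649 in the control array.

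Nfib, known for its part in lung maturation, did not share the low litter on its brighter probe sets. Its leading probe set 1427680_a_at gave 2952, 2474, 2771 and 2207 in transgenic and 2976, 2264, 3293 and 2520 in control arrays of litters 1 to 4. The transgenic array of litter 4 was the lowest, but litters 2 and 4 overlapped, and the gap from lowest to highest litter mean was 0.35 log2 or 1.28-fold. On 1454834_at litter 2 was the lowest, at 2275 in the transgenic and 2037 in the control array, and litter 4 stood at 2786 and 2551, within the range of the other litters. On 1438244_at litter 4 had the highest mean, with 1659 in the transgenic and 1490 in the control array, but its control array was below the transgenic array of litter 2 at 1583. Litter 4 was below all other arrays for 1434101_at, at 718 and 734, and for 1416293_at, at 170 and 164 in the transgenic and the control array. It had the lowest mean for 1434102_at, at 572 and 652, and for 1448288_at, at 857 and 864. There the control array of litter 2 was lower, at 565 and 824. The gap of 1434102_at, 0.80 log2, was the widest for Nfib. Probe sets 1434101_at, 1434102_at and 1454834_at were designed from the same sequence record, and 1448288_at and 1416293_at from another.

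**Figure D1:**
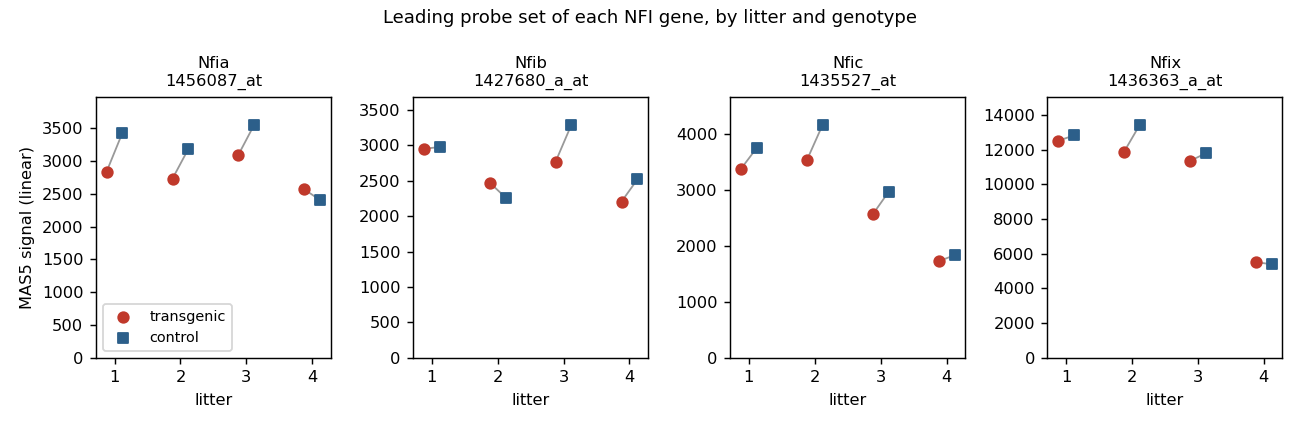
MAS5 signal (linear, from 0) of the leading probe set of each NFI gene in the transgenic (circle) and control (square) array of every litter, with a line joining the arrays of a litter. Both arrays of litter 4 are lowest for Nfia, Nfic and Nfix, at 5522 and 5391 for Nfix against at least 11356 elsewhere, whereas for Nfib the transgenic array is the lowest at 2207 and the control array lies among those of the other litters.

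Counted over the family, both arrays of litter 4 lay below the other 6 arrays for 12 of the 20 tested probe sets, 5 of 6 for Nfia, 2 of 7 for Nfib, 2 of 3 for Nfic and 3 of 4 for Nfix. The same held for 11.1% of all 22519 tested probe sets. By its mean alone litter 4 was the lowest litter for 17 of the 20, among them 5 of the 7 Nfib probe sets, beside 29.2% of all tested probe sets. Litter 4 stood above the other 6 arrays for 0 of 20 NFI probe sets, against 10.9% of all. Counts for the other litters were as follows: litter 1 above the rest for 1 probe set (2.91% of all), litter 2 below for 1 (9.06%) and litter 3 above for 1 (7.49%). Litter 1 was below, litter 2 above and litter 3 below for 0 of 20, beside 2.3%, 10.8% and 7.64% of all. Over the whole array, limma's F-test over litters called 2027 probe sets (9%) at an adjusted p of 0.05, and 0 when the intensity trend was left out of the variance model (4915 at an unadjusted p under 0.05). Since litter differences were in view when the family was proposed, nothing is read from these counts, and probe sets of a gene are repeated looks at the same RNA.

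**Figure D2:**
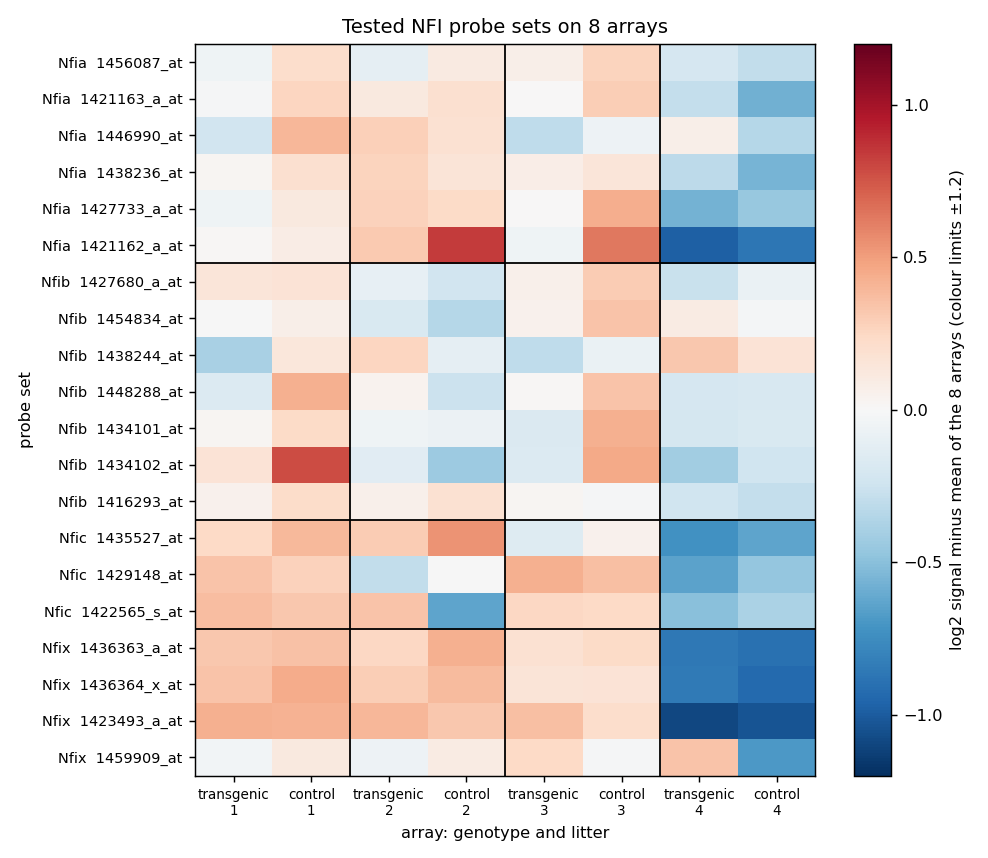
Log2 signal of each tested NFI probe set minus its mean over the 8 arrays (blue below, red above, limits ±1.2), with genes in blocks from top to bottom and, within each litter, the transgenic array left of the control array. The last pair of columns, litter 4, is blue in both arrays for 5 of 6 Nfia, all 3 Nfic and 3 of 4 Nfix probe sets, and for Nfib blue in some rows and light red in others.

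Across the 20 tested probe sets the gap between the highest and the lowest litter mean ranged from 0.29 to 1.50 log2, with a median of 0.62, beside a median of 0.40 over all tested probe sets. By gene the median gap was 1.25 log2 for Nfix, 0.95 for Nfic, 0.62 for Nfia and 0.40 for Nfib. The spread between the 2 arrays of a litter had a median of 0.16 log2 (SD) over the NFI and 0.17 over all probe sets. Without litter 4 the gaps of the leading probe sets were 0.13 log2 for Nfix, 0.17 for Nfia and 0.47 for Nfic, so that they rested largely on that litter, whereas that of Nfib was 0.35 with and without it.

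**Figure D3:**
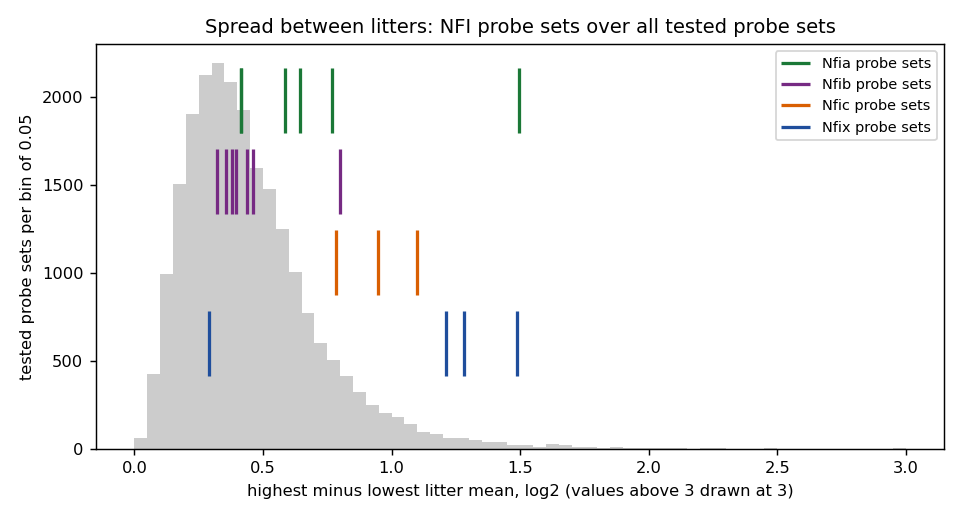
Histogram of the gap between the highest and the lowest litter mean (log2) over all tested probe sets, in grey, with a coloured line at the gap of every tested NFI probe set, 1 row of lines per gene. For Nfix 3 of 4 lines lie above 1.2 log2, the Nfic lines lie between 0.78 and 1.10, and 6 of the 7 Nfib lines lie under 0.5, within the bulk of all probe sets.

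Litter 4 also stood apart in measures of RNA quality. The 5-prime to 3-prime signal ratio of Gapdh, read from Affymetrix control probe sets and lower where RNA is more degraded or copied less far, was 1.14 in the transgenic and 1.17 in the control array of litter 4, against 1.29 to 1.36 in the other transgenic and 1.26 to 1.35 in the other control arrays. For beta-actin it was 0.475 and 0.512 in litter 4, against 0.591 to 0.647 in the other transgenic and 0.590 to 0.641 in the other control arrays. Both ratios were thus lowest in the 2 arrays in which the leading probe sets of Nfia, Nfic and Nfix were lowest. The part of RNA quality in the NFI values was not tested, and litter and RNA quality cannot be told apart at this low end, since no array of another litter had ratios as low.

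Marker lists of other cells in a rib digest were summed over tested members for each array. The 13 of 14 skeletal muscle genes tested, led by Acta1, Tnnt3 and Myl1, summed to 56350 in the transgenic and 61444 in the control array of litter 4, against 34482 to 53502 in the other transgenic and 37192 to 55284 in the other control arrays. Of the 13 genes, 4 had both arrays of litter 4 above the other 6, beside 13.2% of the leading probe sets of all tested genes. Below the other 6 lay 0 of them, beside 11.4%. Acta1 was highest in litter 1, at 12881 and 13206, and stood at 9905 and 11226 in litter 4. Litter 1 had muscle sums of 53502 and 55284 next to Nfix signals of 12522 and 12824, and litter 2 had sums of 34482 and 37192 next to Nfix signals of 11886 and 13452. All 12 fibroblast and perichondrium genes were tested, led by Fmod, Col3a1 and Col1a2, and summed to 220910 and 241510 in litter 4, against 240860 to 255540 in the other transgenic and 242950 to 262360 in the other control arrays. The control array of litter 4 was thus above the transgenic array of litter 2 at 240860. Of the 12 genes, 3 had both arrays of litter 4 below the other 6, and 2 had both above. All 6 endothelial genes, led by Esam, summed to 1027 and 1158 in litter 4, the lowest of all arrays, against at least 1364 in the other transgenic and 1277 in the other control arrays.

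For the remaining lists, as for the fibroblast and perichondrium genes, the arrays of litter 4 overlapped with those of other litters. Cartilage markers summed to 374320 and 365740 in the transgenic and control array of litter 4, within the range of 361800 to 459940 over all arrays. Of the 14 genes, 4 had both arrays of litter 4 below the other 6, Sox9 among them, beside 11.4% of the leading probe sets of all tested genes. Above the other 6 lay 1 of them, beside 13.2%. Of 8 leukocyte genes 5 were tested, with sums of 3778 and 5917 in litter 4, the highest of each genotype, against 1873 to 3218 in the other transgenic and 2225 to 5064 in the other control arrays. Much of these sums came from S100a9, at 1704 and 2524 in litter 4, and S100a8, at 1409 and 2418, each the highest of its genotype. Csf1r went the other way, at 229 and 345 in litter 4, the lowest of each genotype. Of the leukocyte genes tested, 0 had both arrays of litter 4 above all other arrays. The 5 of 7 osteoblast genes that were tested summed to 1585 and 1720 in litter 4, against 1567 to 2569 over all arrays. Of 8 erythroid genes only Alas2 and Slc4a1 were tested, and of 8 neural and glial genes only Fabp7 and Sox10, while Gfap, Tubb3, Elavl3 and Stmn2 lay under the filter. Xist, which marks female cells, gave 12657 in the transgenic and 11370 in the control array of litter 4. The same pairs were 6230 and 10062 in litter 1, 14182 and 6091 in litter 2, and 5726 and 13940 in litter 3. The Y-linked genes Eif2s3y, Kdm5d and Uty summed to 2008 and 1667, 1086 and 1891, and 2157 and 408 in litters 1 to 3, and to 1714 in both arrays of litter 4. The part of these cells in the NFI values was not tested.

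**Figure D4:**
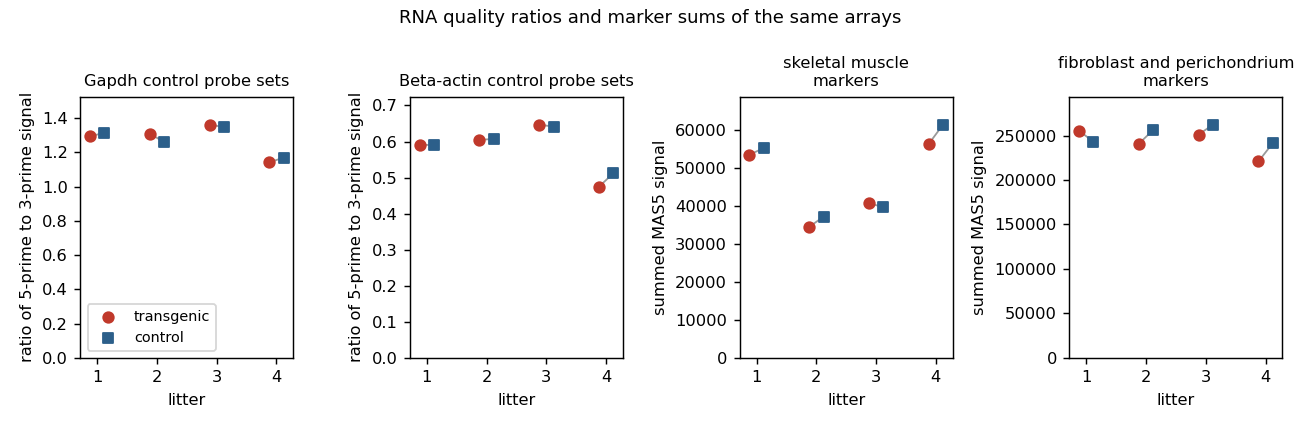
Ratio of 5-prime to 3-prime control signal for Gapdh and for beta-actin, and summed MAS5 signal of skeletal muscle and of fibroblast and perichondrium markers, by litter, with transgenic (circle) left of control (square) and axes from 0. Litter 4 has the lowest ratios, 1.14 and 1.17 for Gapdh, and the highest muscle sums, with litter 1 next at 53502 and 55284.

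Between genotypes no NFI probe set passed the test. By limma 0 of 20 had an adjusted p under 0.05 and 0 had an unadjusted p under 0.05, where 0% and 1.09% of all tested probe sets did. With the litter as a block 0 again passed and 2 had an unadjusted p under 0.05, beside 3.34% of all. The smallest adjusted p of any NFI probe set was 0.9999 without and 0.9998 with the block. The labels tie the replicate numbers to litters, so that the block follows the design, and intervals without it also hold the differences between litters. In litters 1 to 3 Xist and the Y-linked genes differed between the transgenic and the control array, so comparisons within litters can also hold differences in sex. The part of sex in the genotype differences was not tested.

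The mean signal of Nfix on its leading probe set was 10322 ± 3235 in transgenic and 10866 ± 3713 in control arrays (SD, n = 4 each). The fit gave -0.06 log2 (SE 0.29) and a 95% interval of -0.70 to 0.58, and with the litter as a block the interval was -0.20 to 0.08. The ratio of transgenic to control within litters 1 to 4 was 0.976, 0.884, 0.962 and 1.02. The sign of the genotype difference was not the same in all 4 litters.

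For Nfic the mean signal was 2804 ± 833 in transgenic and 3183 ± 1028 in control arrays (SD, n = 4 each), a difference of -0.17 log2 (SE 0.26) with an interval from -0.72 to 0.38. The ratio was 0.900, 0.848, 0.865 and 0.942 in litters 1 to 4, below 1 in all 4. With the block the interval was -0.32 to -0.02, and the adjusted p of 0.9998 by limma was not past the threshold. Its other tested probe sets had ratios on both sides of 1.

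For Nfia the leading probe set averaged 2809 ± 222 in transgenic and 3144 ± 517 in control arrays (SD, n = 4 each), a difference of -0.15 log2 (SE 0.13, interval -0.43 to 0.13). The ratio was 0.827, 0.858 and 0.871 in litters 1, 2 and 3 but 1.07 in litter 4. Nfib averaged 2601 ± 328 in transgenic and 2763 ± 460 in control arrays (SD, n = 4 each), a difference of -0.08 log2 (SE 0.14, interval -0.38 to 0.22), with ratios of 0.992, 1.09, 0.842 and 0.876. Neither gene was shifted the same way in every litter on its leading probe set. With the litter as a block the intervals were -0.32 to 0.03 for Nfia and -0.26 to 0.10 for Nfib. Over the 20 tested probe sets the 95% interval of the fit without litter reached a median of 0.43 log2 to either side of the fitted difference.

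**Figure D5:**
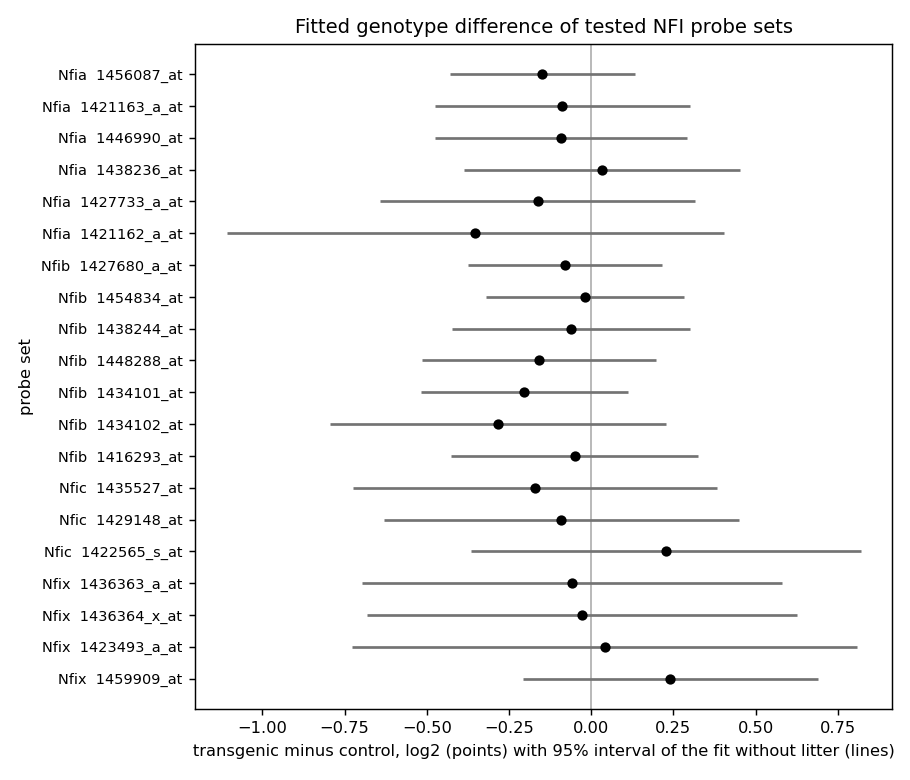
Fitted transgenic minus control difference (log2, points) of each tested NFI probe set with its 95% interval from the fit without litter (lines). All 20 intervals cross 0, and 16 of the points lie below it, between -0.35 and -0.02 log2.

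Over the family, 16 of 20 fitted differences were below 0, beside 51.2% of all tested probe sets. By gene these were 5 of 6 for Nfia, 7 of 7 for Nfib, 2 of 3 for Nfic and 2 of 4 for Nfix. Their median was -0.08 log2, beside 0.00 over all tested probe sets, and they ranged from -0.35 to 0.24. The transgenic array was below the control array in all 4 litters for 2 of 20, Nfic 1435527_at and Nfia 1421162_a_at, beside 5.43% of all, and above it in all 4 for 0 of 20, beside 5.2%. No probe set had all transgenic arrays below all control arrays (0.568% of all) or above them (0.453%). The number of differences below 0 was 11 without the control array of litter 3 or the transgenic array of litter 4.

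Genes reported as NFI targets, mostly in mouse brain, muscle and tooth, were set beside the family. Of 26 such genes 25 had a probe set and 17 were tested on their leading probe set, while Gfap, Myh7, Dspp, Pck1, Gabra6, Cntn2, Mmd2 and Ephb1 lay under the filter. Between genotypes 0 of 17 passed (limma, adjusted p of at least 0.9999, 0% of all probe sets), 8 differences being above and 9 below 0, with a median of -0.01 log2 beside 0.00 over the leading probe sets of all tested genes. The transgenic array was above the control array in all 4 litters for Klf4 and Ezh2, beside 5.2% of all tested probe sets. It was below in all 4 for Apcdd1, beside 5.43%. With the litter as a block the 95% intervals were 0.02 to 0.33 for Klf4, -0.04 to 0.29 for Ezh2 and -0.52 to -0.07 for Apcdd1. The adjusted p by limma was then 0.9998 for each.

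By litter, 5 of the 17 targets had both arrays of litter 4, the litter with the lowest 5-prime to 3-prime ratios, below the other 6, beside 11.4% of the leading probe sets of all tested genes, and 1 had both above, beside 13.2%. Litter 3 was above the other arrays for 4 targets (8.59%), and litter 2 below for 2 (10.8%), Ckm and Eno3. Those below in litter 4 were Col1a2, Sox9, Klf4, Cdkn1a and Apcdd1. Cdkn1a, which encodes the cell cycle inhibitor p21 and is repressed by NFI in reporter studies, gave 604 in the transgenic and 650 in the control array of litter 4, against 1354 to 1497 in the other transgenic and 954 to 1345 in the other control arrays. Sox9, the main chondrocyte factor and a partner of Nfia in glia, gave 3080 and 3035 in litter 4, with litter 3 next at 3665 and 3388 and the other litters at 5073 or more.

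Klf4, a factor that Nfic activates in tooth-forming cells, gave 3332 in the transgenic and 2897 in the control array of litter 4, against 4660 to 5207 in the other transgenic and 3996 to 4739 in the other control arrays. For Col1a2, a collagen gene whose promoter NFI binds, the values were 29464 and 28696 against at least 35383 in the other transgenic and 37004 in the other control arrays. Bbx was the one target above all other arrays in litter 4, at 1694 and 1703. Ezh2, which Nfib lowers in mouse brain, was nearly level, between 1811 and 2262 on all 8 arrays.

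Ckm and Eno3, the muscle genes among the brightest targets named here, followed another order. No other tested target had both arrays of litter 2 below all other arrays. Ckm, the muscle creatine kinase gene that Nfix activates in fetal mouse muscle, was lowest in litter 2, at 1338 in the transgenic and 1339 in the control array, and stood at 2247 and 2791 in litter 4. Eno3, another fetal muscle target of Nfix, was also lowest in litter 2, at 892 and 1053, and stood at 1381 and 1889 in litter 4. The muscle sum, which includes Ckm itself, was also lowest in litter 2, and the leading Nfix probe set was lowest in litter 4. The part of either in the values of these targets was not tested.

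The genes most like each member were taken as the 3 with the highest Pearson r of log2 signal over the 8 arrays, among the leading probe sets of 10988 other tested genes. These r are a description: the arrays pair up by litter, and all the r were lower without litter 4, most of all for Nfix. Because the genes were picked on all 8 arrays, the r without litter 4 are no separate check. For Nfix they were Dda1, Naf1 and Bysl, with r of 0.995, 0.994 and 0.991 over 8 arrays and 0.803, 0.796 and 0.40 over the 6 arrays of the other litters. Bysl, which acts in ribosome assembly, gave 536 and 542 in the transgenic and the control array of litter 4 and 718 to 727 elsewhere. For Nfic they were Ddit4l, Trim28 and Dmwd, with r of 0.983, 0.983 and 0.983, and 0.955, 0.945 and 0.971 over the 6 arrays. Trim28, a corepressor gene, gave 3366 and 3621 in litter 4 and 4025 to 5049 elsewhere.

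For Nfia the most alike were Gdf10, Il1rl2 and Pdxk, with r of 0.978, 0.968 and 0.963 over 8 and 0.977, 0.941 and 0.925 over 6 arrays. Gdf10, a gene of the BMP family, gave 2943 and 2935 in litter 4 and 3246 to 3855 elsewhere. For Nfib they were Hmgb3, Tbc1d2b and Pxdn, with r of 0.987, 0.981 and 0.975 over 8 and 0.984, 0.976 and 0.966 over 6 arrays. No gene was among the 3 of more than 1 member, and no NFI gene was among those of another.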

How the data were processed

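RNA from 8 samples was biotin-labelled and hybridised to 1 Affymetrix array each. The authors deposited 1 linear intensity per probe set and array, made with MAS5 per the submitters' processing notes, and its version and settings are not stated there. Each array's mean signal, trimmed by 2% at both ends, was 500, so arrays had been scaled alike. Names come from the platform annotation of 2016: 34945 probe sets had 1 symbol, 932 several and 9160 none, and 64 Affymetrix controls were left out of the tests.

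An offset of 22.2, the 20th percentile of all signals, was added before log2, which understates fold changes of dim probe sets. The filter left 22519 probe sets. Genotypes were compared with limma 3.58.1 in R 4.3.3 (lmFit on all 8 arrays without covariates, eBayes with an intensity trend, two-sided) and adjusted over all tested probe sets by Benjamini-Hochberg, with a threshold of 0.05. Litters were compared by limma's F-test in a fit that also held genotype. Both fits were tested on simulated data. For Hoxc8 an exact permutation test of log2 values was used.

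The members, lists and tests were chosen with earlier results of these data known. Named are all NFI probe sets, Hoxc8, the 8 brightest NFI targets, the 3 brightest markers of a list and the 3 genes most like each member. Apcdd1, the sex-linked genes and the genes under the filter were named after their values were seen. Labels and design text tie same-numbered arrays to a litter. Deviations from the genotype mean, compared across probe sets, had correlations of 0.0251, 0.434, 0.376 and 0.379 within litters 1 to 4. The highest correlation of the transgenic array with a control array of another litter was 0.0303, 0.063, 0.00416 and -0.0722. The pair of litter 1 was thus not set apart by these values. Alternatives were a litter block, other offsets, filters, scalings and variance settings, array weights, and arrays or litters left out. Promoter windows are from RefSeq (GRCm38.p6), and probe coordinates are not given because no build was named for them.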

Additional observations from a re-analysis of the deposited data

Results flagged for a closer look

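Within each genotype, the distance of the lowest or highest of the 4 arrays from its neighbour was divided by the whole range and compared with Dixon's 95% critical value, for 84 groups of values, as a description of single arrays and not a test of the litters. In 8 groups an array stood apart, where chance gives about 4, and the groups are not independent because the probe sets share arrays.

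In 7 of the 8 the array belonged to litter 4 and was the lowest. These were Nfix 1436363_a_at at 5522 (next 11360) and 1423493_a_at at 1912 (next 5273) in the transgenic array, Nfib 1416293_at at 169.7 (next 208.9) in the transgenic array, and Nfia 1421163_a_at at 1326 (next 2278) and 1438236_at at 213 (next 361.9) in the control array. The targets Col1a2 at 29460 (next 35380) and Cdkn1a at 603.7 (next 1354) were the others, both in the transgenic array. The eighth was the sum of the Y-linked genes Eif2s3y, Kdm5d and Uty in the control array of litter 3, at 408 (next 1667), where Xist stood at 13940.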

How the results depend on the processing

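Under 22 other settings 0 probe sets, NFI or any, passed between genotypes by limma, among them the fit with the litter as a replicate block, which gave 0 calls and 16 NFI differences below 0. Of 433 fitted NFI differences under these settings 34, of 13 probe sets, had the opposite sign, 2 of them with all arrays kept, Nfib 1454834_at at 0.00 log2 after median centring (0.004745) and Nfia 1438236_at at -0.035 with array weights. Leaving out arrays or litters, the difference on leading probe sets ranged from -0.27 to -0.08 log2 for Nfia, -0.17 to 0.0084 for Nfib, -0.41 to 0.042 for Nfic and -0.37 to 0.22 for Nfix. Of the other probe sets, those whose sign turned when arrays or litters were left out were Nfia 1438236_at (-0.15 to 0.14) and 1446990_at (-0.26 to 0.090), Nfib 1416293_at (-0.15 to 0.021), 1438244_at (-0.20 to 0.093) and 1454834_at (-0.14 to 0.091), Nfic 1422565_s_at (-0.021 to 0.43) and 1429148_at (-0.26 to 0.11), and Nfix 1423493_a_at (-0.30 to 0.41), 1436364_x_at (-0.34 to 0.25) and 1459909_at (-0.020 to 0.38). The number of NFI differences below 0 then ranged from 11 to 18. The number of probe sets past the threshold between litters, 2027, was 995 without a filter and 0 without the intensity trend (limma, 4915 with an unadjusted p under 0.05), and 546 to 3047 with arrays or litters left out, 546 being without the control array of litter 2. The number of NFI probe sets past the threshold between litters is not given, since litter differences were in view when the family was proposed. The gap between litters on the mean of a gene's tested probe sets was 0.69 log2 for Nfia, 0.88 for Nfic and 1.05 for Nfix. For Nfib this gap was smaller than for the other genes. With arrays or litters left out the gap of leading probe sets ranged from 0.17 to 0.51 for Nfia, 0.33 to 0.48 for Nfib, 0.47 to 1.22 for Nfic and 0.13 to 1.30 for Nfix. The low values of litter 4 were also counted under alternatives chosen after seeing the data: 11 NFI probe sets were below all other arrays after quantile normalization (10.5% of all), 12 after median centring (11.6%) and 12 to 15 with single arrays left out (12.1% to 21.2%, the highest being 19.1% without the transgenic and 21.2% without the control array of litter 4). Array medians differed from their mean by -0.06 to 0.09 log2. The cause of these shifts was not tested, and signals near the offset limit the dim Nfic probe sets.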
